A study of Mus musculus with 18 samples.

Results

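Mouse chromosome 13 carries 46 listed genes of signalling, cell cycle control, DNA repair, matrix and development that are followed here through fibroblasts with 3 copies of that chromosome. The genes are named in a list that sets no threshold on measured values. Of the 46, 40 had a probe set that names 1 gene, and 34 of these were tested, since their log2 values averaged at least 4 across the arrays. They are 34 of the 277 tested genes of chromosome 13 and of the 7381 tested genes in all. The question was which of them follow the gene dose, since 3 copies in place of 2 give 1.5-fold, or 0.58 on the log2 scale.

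The listed genes belong to pathways that decide whether a fibroblast divides, moves or lays down matrix. Rasa1 and Pik3r1 act below growth factor receptors, Ptch1 holds the Hedgehog pathway silent until ligand binds it, and Inhba, Fst and Smad5 belong to the TGF-beta superfamily. Cdk7 and cyclin H (Ccnh) form a kinase that activates other cell cycle kinases, and Msh3 and Fancc serve DNA repair. An extra chromosome raises the template for every gene it carries, while feedback, protein partners and RNA turnover can set the transcript of a single gene apart from that dose.

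The cells were mouse embryo fibroblasts (MEFs), connective tissue cells grown from embryos, kept for 2 passages in culture. RNA from 18 lines was hybridised, each to its own Affymetrix array, starting from 5 ug of total RNA. There were 9 control lines with a normal set of chromosomes, 4 lines trisomic for chromosome 13, 3 for chromosome 16, and 1 each for chromosomes 1 and 19. The labels give no strain, embryo age or way in which the trisomies were made, and do not say that each line came from its own embryo, so a p-value here measures only how far these cultures spread, which may be technical. In RNA from a whole culture, fewer cells expressing a gene and less RNA per cell cannot be told apart.

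The arrays differed in signal between the ends of control transcripts, and the labels give no direct measure of RNA quality. Gapdh control probe sets at the 3' end of the transcript read higher than those at its 5' end, a gap that grows when transcripts are broken, by 6.94 and 5.57 (log2) for trisomy 13 replicates 3 and 4 and 6.55 for trisomy 16 replicate 1. The gap lay between -0.20 and 1.41 on the other 15 arrays. These 3 arrays are called 3'-biased below and the others intact, so trisomy 13 has 2 intact arrays (replicates 1 and 2) and 2 that are 3'-biased. All 12 fibroblast markers listed were tested, with a mean of 12.37 to 13.58 in controls and 11.97 to 12.98 in trisomy 13. The mean of 13 macrophage markers was 5.71 on trisomy 13 replicate 4, 2.90 to 3.24 on the other trisomy 13 arrays and 2.68 to 4.93 in controls, and 9 of the 13 were above all controls on replicate 4. Its part in the results was not tested.

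The listed genes were higher in trisomy 13 by about the gene dose when read as a group. Their median log2 fold change over controls was 0.52 (1.43-fold), and 31 of 34 were above 0. The 243 other tested genes of chromosome 13 had a median of 0.65 (1.57-fold, 218 above 0), and all 7381 tested genes 0.01. The median deviation of the 34 genes from their control mean was 0.57, 0.58, 0.68 and 0.80 on trisomy 13 replicates 1 to 4, and -0.26 to 0.18 on the control arrays. On the arrays of the other trisomies it was 0.11, -0.00 and -0.27 for trisomy 16, -0.05 for trisomy 1 and 0.19 for trisomy 19, so 3 lay within the control range and the others just past its ends. Over the 243 other genes of the chromosome, the 3'-biased trisomy 16 array read 0.53 at 2 copies. The trisomy 13 arrays read 0.53, 0.64, 0.70 and 0.89 over these genes. The part of the 3' bias in the medians of the 3'-biased arrays was not tested.

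Single genes were measured less firmly than the group. By limma, 3 of the 34 (8.82%) rose at an adjusted p under 0.05 (Rasa1, Serpinb6a and Enc1) and none fell. Among all tested genes 1.1% rose and 0.664% fell (1.76% in all). Among the 243 other genes of the chromosome, 37 (15.2%) rose and 0 fell. At an unadjusted p under 0.05 the count was 20 of the 34, beside 151 of the 243 other genes and 1617 of all 7381. All 4 trisomy 13 arrays lay above all 9 controls for 4 of the 34, namely Rasa1, Serpinb6a, Enc1 and Inhba. The same held for 1.77% of all tested genes and 49 of the 243 other chromosome 13 genes.

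Set against the dose itself, 18 of the 34 (52.9%) had a 95% interval that held 1.5-fold and excluded no change, and 121 of the 243 other chromosome 13 genes (49.8%) did the same. For 12 more (35.3%) the interval held both values, so these arrays do not tell a full dose from none. Rasa1 and Serpinb6a lay above 1.5-fold, and Iqgap2 and Smn1 below it. After adjustment over the 277 genes of the chromosome, limma's test against 1.5-fold called 0 of the 34 and 1.08% of the 277, with 4 at an unadjusted p under 0.05. The same test called 0 of the 34 on intact arrays (0% of the 277, with 2 of the 34 at an unadjusted p under 0.05) and 5 on 3'-biased arrays, where it called 27.8% of the 277. The median width of a gene's interval was 1.30, over 2 times the dose on the log2 scale.

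**Figure D1:**
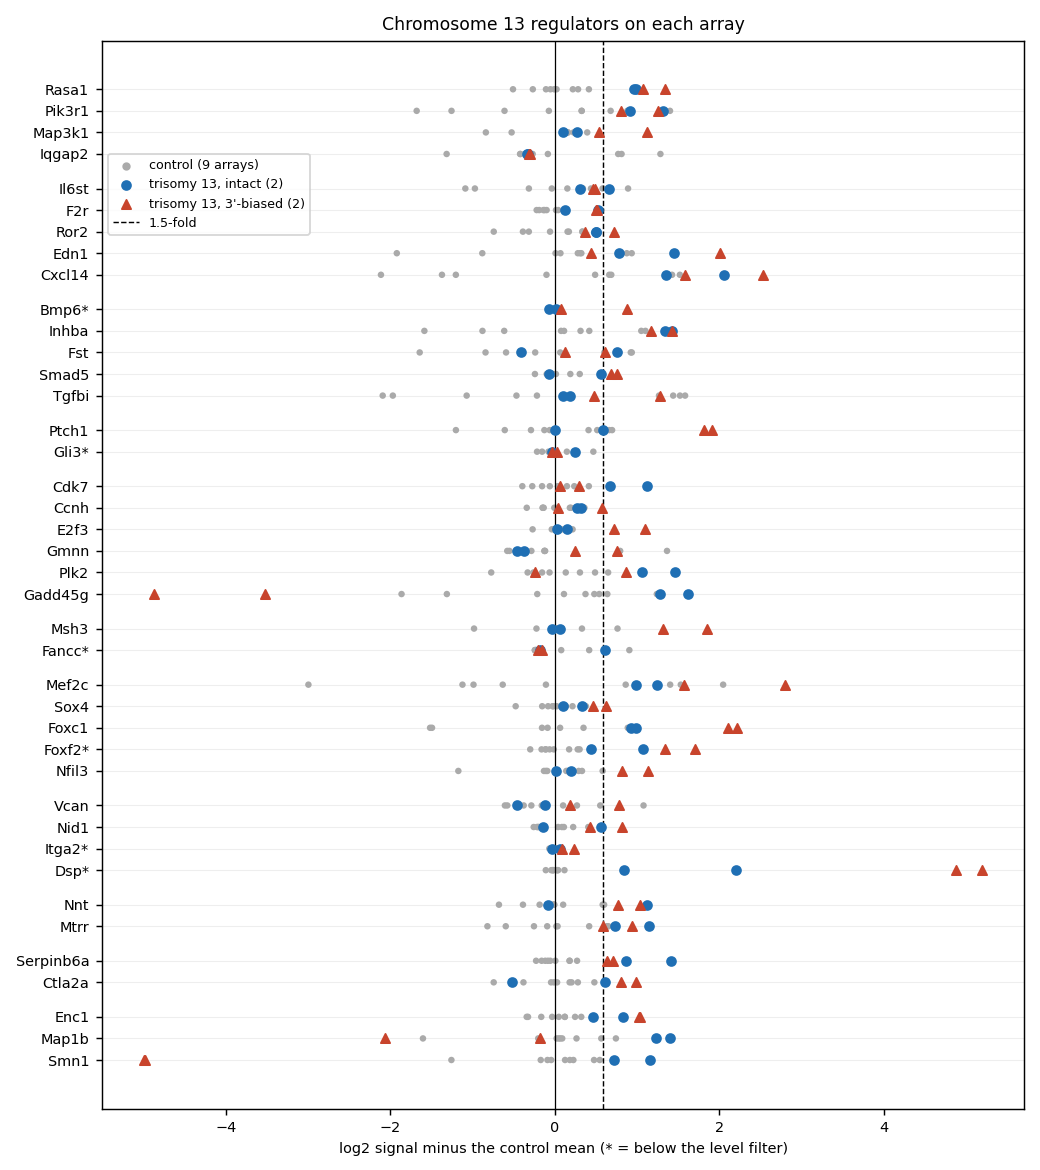
Deviation of each of the 40 measured chromosome 13 regulators from its control mean (log2, 1 point per array; an asterisk marks the 6 below the filter), grouped by role, with controls, intact trisomy 13 and 3'-biased trisomy 13 arrays marked apart and a dashed line at 1.5-fold. Most trisomy 13 points lie right of 0, while both 3'-biased arrays of Smn1 and Gadd45g and 1 of Map1b lie below all controls.

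Among the intracellular signalling genes, Rasa1 had the firmest rise. Rasa1 encodes a GTPase-activating protein that switches Ras off. Its log2 values in trisomy 13 were 12.97, 13.00, 13.07 and 13.34 (replicates 1 to 4), against a lowest of 11.50, a median of 12.00 and a highest of 12.42 in controls. Every trisomy 13 array was above every control. The log2 fold change was 1.09 ± 0.18 (SE; 2.13-fold, limma adjusted p = 0.00578, 95% interval 0.71 to 1.47). It was 0.98 on intact arrays (adjusted p = 0.0546) and 1.20 on 3'-biased arrays (adjusted p = 0.000268), so the 2 kinds of array gave like values. At 2 copies, the 3'-biased trisomy 16 array read 12.54 for Rasa1, above all controls, and the other trisomy 16 arrays 11.68 and 11.88. Set against that 1 array, the 3'-biased trisomy 13 arrays were higher by 0.66. Without the 3'-biased arrays Rasa1 gave 0.98 (limma adjusted p = 0.0789), and with the 3' bias as a covariate 0.87 (adjusted p = 0.0587). With the mean of its probe sets it gave 0.95 (adjusted p = 0.0935), so the call was lost at a fold about as large.

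Pik3r1, the regulatory subunit of PI 3-kinase, was higher by 1.07 with an interval of 0.09 to 2.06, with controls of up to 9.58. Map3k1, a kinase at the top of a MAP kinase cascade, differed by 0.51 and missed the threshold, at a low control mean of 4.31. Iqgap2, a scaffold protein of the cytoskeleton, was one of the 3 genes below 0. Its values were 5.62, 5.64, 5.66 and 5.65 in trisomy 13 and 4.64, 5.69 and 7.24 (lowest, median, highest) in controls. The 4 values lay at the middle of the controls, with a difference of -0.32 (interval -1.14 to 0.50) that excluded 1.5-fold. Controls 1, 4, 8 and 9 read 5.54 to 5.69, close to the trisomy 13 values, and controls 5, 6 and 7 read 6.73 to 7.24. Whether the shared level is the background of the probe set was not tested, so Iqgap2 is not shown to escape the dose. Of 22 other genes of Ras, PI 3-kinase and MAP kinase signalling coded on other chromosomes, 13 were tested and 0 passed. Among them Pik3ca, the catalytic partner of Pik3r1, differed by 0.23.

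All 5 cell surface receptors and ligands had positive differences, with a median of 0.52 on all trisomy 13 arrays and close values on intact (0.50) and 3'-biased arrays (0.54). F2r, the thrombin receptor PAR1, read 14.98, 14.59, 14.97 and 14.96 in trisomy 13 and 14.24, 14.36 and 15.02 (lowest, median, highest) in controls. Replicate 2 was the low array, and 2 controls lay above it. The difference was 0.42 on all arrays (adjusted p = 0.106) and 0.51 on 3'-biased arrays, where F2r rose (adjusted p = 0.0354). On the 3'-biased arrays 15.6% of all tested genes and 51.9% of the other tested chromosome 13 genes rose. A call there is to be read against those shares.

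Il6st (gp130), the shared signalling subunit of the interleukin-6 receptor family, differed by 0.48 and Ror2, a Wnt5a receptor, by 0.52. Edn1, the vasoconstrictor endothelin-1, differed by 1.17 (interval 0.21 to 2.13). Cxcl14, a chemokine, had the largest positive difference of the 34 at 1.88 (3.68-fold), with an interval of 0.58 to 3.18. Its trisomy 13 values were 10.59, 11.29, 10.82 and 11.76, against 7.12 to 10.76 in controls, so 1 intact array lay within the control range. The Cxcl14 value missed the threshold (adjusted p = 0.112), and the trisomy 19 line read 12.22, above all of them. Among 9 tested genes of gp130 signalling on other chromosomes, 0 passed.

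In the TGF-beta superfamily, Inhba was the gene whose arrays were most alike in trisomy 13. Inhba encodes the activin A subunit. Its values were 12.16, 12.24, 12.24 and 11.99 in trisomy 13, and 9.24, 10.94 and 11.93 (lowest, median, highest) in controls. The groups did not overlap, but the control lines spread over more than the difference of 1.34 (2.53-fold, interval 0.51 to 2.16, adjusted p = 0.0859). The values on intact (1.38) and 3'-biased arrays (1.30) were close. Fst, which encodes follistatin and binds activin, differed by 0.27 (interval -0.74 to 1.29). Its values in the lines with other trisomies, 9.52 to 12.97, reached above those of the trisomy 13 lines, which ended at 10.57.

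Smad5, a signal carrier below BMP receptors, read 8.07, 7.44, 8.26 and 8.19, against 7.27, 7.47 and 7.81 in controls. Replicate 2 fell within the controls and the other 3 lay above all of them. Smad5 rose on the 3'-biased arrays by 0.72 (adjusted p = 0.0298), and its difference was 0.25 on the intact ones. Tgfbi, a matrix protein induced by TGF-beta, differed by 0.51 with an interval of -0.92 to 1.94, and its controls ranged from 8.39 to 12.06. Of 26 other TGF-beta superfamily genes, 22 were tested and 0 passed. Smad1, the close relative of Smad5, differed by 0.27 and Smad4, the shared partner, by 0.03.

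For the Hedgehog pathway, the chromosome carries Ptch1, the receptor that restrains Smoothened, and Gli3, a transcription factor at the end of the pathway, which was below the filter. Ptch1 read 9.22 and 8.64 on intact arrays and 10.44 and 10.55 on 3'-biased arrays of trisomy 13, with 7.43, 8.57 and 9.33 in controls. The 2 intact values lay within the control range and the 2 others above it. Ptch1 rose on 3'-biased arrays by 1.86 (3.64-fold, adjusted p = 0.00761 against no change), and its difference on intact arrays was 0.30. On 3'-biased arrays its unadjusted interval was above the dose, but limma's test against 1.5-fold missed the threshold (adjusted p = 0.0584). The difference between the 2 kinds of array, 1.57, missed the threshold (adjusted p = 0.0801), and the 3'-biased trisomy 16 array also read higher for Ptch1 (9.50) than the other trisomy 16 arrays (8.19 and 6.44).

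Of 13 further Hedgehog genes listed, 4 on other chromosomes were tested, and Gli2 fell. Gas1, a Hedgehog co-receptor among these 13, is itself on chromosome 13 and was left out of the partner counts, with a difference of -0.07 (-0.14 on intact arrays). Gli2 is the main transcriptional activator of the pathway. It read 6.35, 8.28, 8.39 and 7.97 in trisomy 13 and 9.51 ± 0.46 (SD, n = 9) in controls, with a log2 fold change of -1.77 (adjusted p = 0.0166), of -2.20 on intact arrays (adjusted p = 0.0443) and -1.33 on 3'-biased ones. Smo and Sufu, the next steps below Ptch1, differed by -0.03 and 0.07. Over all pathways, 125 partner genes were listed, Gas1 included, and 90 on other chromosomes were tested. In trisomy 13, 0 rose and 2 fell, Gli2 and the basement membrane collagen Col4a2 (-1.11, adjusted p = 0.0470), and the median was -0.02. Col4a2 differed by -0.34 on intact arrays (adjusted p = 0.562) and by -1.89 on 3'-biased ones. At an unadjusted p under 0.05 there were 20 of 90 partners, beside 1617 of all 7381 tested genes. Without both 3'-biased arrays, 0 partners passed. Without trisomy 13 replicate 4, 0 of the 90 passed, and without replicate 1 or 2 the counts were 4 and 9. The count was 1 without replicate 3 or without any single control.

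The cell cycle genes gave mixed values on the 2 kinds of array. Cdk7 read 12.58 and 13.02 on intact arrays, above all controls (11.51, 11.94 and 12.32), and 11.97 and 12.20 on 3'-biased arrays, within them. Its difference was 0.90 on intact (adjusted p = 0.0843, short of the threshold) and 0.18 on 3'-biased arrays. The difference between these missed the threshold (adjusted p = 0.0578). A second Cdk7 probe set, at 4.52 in controls, gave 0.29 on intact and 1.78 on 3'-biased arrays. Ccnh, the partner of Cdk7, differed by 0.30 on intact and 0.31 on 3'-biased arrays, with an interval over all arrays of -0.01 to 0.61. Other Ccnh probe sets gave 0.58 and -0.53 on intact arrays, and 0.35 and 1.68 on 3'-biased ones. The third subunit of the complex, Mnat1, lies on another chromosome and differed by 0.34, and of the 7 listed TFIIH and kinase partners 5 were tested and 0 passed.

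E2f3, a transcription factor of S phase entry, read 4.63, 4.76, 5.32 and 5.70 in trisomy 13 and 4.34, 4.61 and 4.82 in controls. Its intact values were within the controls and its 3'-biased values above them. E2f3 rose on 3'-biased arrays by 0.91 (adjusted p = 0.0099) and differed by 0.09 on intact ones, with an interval there of -0.43 to 0.61. Controls 1, 4, 5, 6, 8 and 9 read 4.57 to 4.61 for E2f3, and whether this level is background was not tested. Gmnn (geminin), which blocks a second round of replication, differed by 0.04, by -0.42 on intact arrays and by 0.50 on 3'-biased ones. Of 14 tested E2F and licensing genes elsewhere, 0 passed. Plk2, a kinase of the cell cycle and stress response, differed by 1.26 on intact arrays (2.40-fold, adjusted p = 0.141) and by 0.32 on 3'-biased ones.

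Gadd45g, a stress and growth arrest gene, gave values of opposite sign on the 2 kinds of array. It read 12.60 and 12.94 on the intact arrays, above all controls (9.45, 11.69 and 12.55), and 7.79 and 6.44 on the 3'-biased arrays, below all of them. Its difference was 1.45 on intact arrays (2.74-fold, interval 0.13 to 2.78) and -4.20 on 3'-biased ones, where Gadd45g fell (adjusted p = 0.000103). The difference of -5.65 between them passed (adjusted p = 0.000103). In trisomy 16, where Gadd45g is present in 2 copies, the 3'-biased array read 7.05 and the other arrays 11.84 and 11.24.

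The DNA repair gene Msh3, a subunit of a mismatch recognition complex, behaved in the other way. It read 5.15 and 5.05 on intact arrays, within the controls (4.11, 5.10 and 5.85), and 6.40 and 6.94 on 3'-biased arrays, above them. Controls 4, 5, 6 and 8 read 5.07 to 5.10, and the other Msh3 probe sets averaged 2.55 and 1.88. Whether the intact values are background was not tested. Msh3 rose by 1.58 on 3'-biased arrays (2.99-fold, adjusted p = 0.00291), with a difference of 0.01 on intact arrays (interval -0.73 to 0.76). The 2 differed by 1.57 (adjusted p = 0.0210), and this call was lost without trisomy 13 replicate 1 (1.62, adjusted p = 0.0670), 2 (1.52, adjusted p = 0.107) or 4 (1.30, adjusted p = 0.167). The 3'-biased trisomy 16 array also read higher (6.15, against 4.86 and 4.87). Of 8 tested mismatch repair and Fanconi genes elsewhere, 0 passed.

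The 4 transcription factors tested had a median of 1.05, with 0.59 on intact and 1.57 on 3'-biased arrays. Foxc1, a forkhead factor of mesenchyme, read 9.61, 9.67, 10.79 and 10.91, against 7.17, 8.75 and 9.67 in controls. The intact values sat at the top of the control range and the 3'-biased values above it. Foxc1 rose on 3'-biased arrays by 2.16 (4.48-fold, adjusted p = 0.0109), and differed by 0.96 on intact arrays (interval -0.31 to 2.22). At 2 copies, the 3'-biased trisomy 16 array also read higher for Foxc1 (9.37, against 7.45 and 6.34). That difference of 2.48 rests on 1 3'-biased array. Sox4, an SRY-related factor of progenitor cells, read 13.70, 13.47, 13.83 and 14.00 in trisomy 13 and 12.90, 13.35 and 13.75 in controls. Sox4 rose on 3'-biased arrays by 0.54 (adjusted p = 0.0272), with 0.22 on intact ones and with overlap on the intact side. On 3'-biased arrays its 4 other probe sets of control mean at least 4 gave 0.07, -0.53, -1.68 and -4.51. The rise there thus holds for the chosen probe set alone. On intact arrays the same 4 gave 0.73, 0.75, 1.00 and 2.57, all above the 0.22 of the chosen probe set. Mef2c, a factor of muscle and vessel development, differed by 1.65 with controls from 4.04 to 9.08, and Nfil3, a basic leucine zipper repressor, by 0.54.

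Among matrix and adhesion genes, Vcan (versican), a large matrix proteoglycan, had an unadjusted interval below the dose on intact arrays. Vcan read 10.98, 11.32, 11.62 and 12.22, with 10.83, 11.28 and 12.52 in controls, so all 4 arrays were within the control range. Its difference was -0.29 on intact arrays (interval -1.05 to 0.47, which excluded 1.5-fold) and 0.10 on all 4. Limma's test against 1.5-fold did not call Vcan on intact arrays (adjusted p = 0.3455). Nid1 (nidogen-1), a basement membrane linker, read 13.66, 12.95, 13.53 and 13.91, against 12.84, 13.14 and 13.50. Only replicate 2 fell within the controls. Nid1 rose on 3'-biased arrays by 0.62 (adjusted p = 0.0242) and differed by 0.21 on intact ones. A second Nid1 probe set gave -1.64 on 3'-biased and 0.82 on intact arrays. Of 15 tested integrins and matrix ligands elsewhere, Col4a2 fell (over all 4 arrays, as given above with its split by array) and 0 rose, and Itgb1, the common integrin beta subunit, differed by -0.10.

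Both metabolic enzymes were near the dose. Nnt, the mitochondrial transhydrogenase that makes NADPH, read 12.25, 11.05, 11.88 and 12.16, against 10.44, 11.11 and 11.72 in controls. Replicate 2 was the low array, below the control median. Nnt rose on 3'-biased arrays by 0.90 (adjusted p = 0.0382) and differed by 0.71 over all 4 arrays (interval 0.19 to 1.24). Mtrr, which keeps methionine synthase active, differed by 0.85 (interval 0.20 to 1.51), with 0.94 on intact and 0.76 on 3'-biased arrays.

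Serpinb6a, an intracellular serine protease inhibitor, had the smallest adjusted p of the 34. It read 14.17, 14.72, 13.94 and 14.02 in trisomy 13, and 13.08, 13.25 and 13.57 in controls, which spread by 0.17 (SD, n = 9). Every trisomy 13 array was above every control, and the intact replicate 2 was highest. The log2 fold change was 0.91 ± 0.13 (SE; 1.88-fold, adjusted p = 0.00265, interval 0.63 to 1.19). On intact arrays it was 1.14 (2.21-fold, adjusted p = 0.00619), the 1 call among the 34 there, where 0.217% of all tested genes rose and 0.0677% fell (0.285% in all). On 3'-biased arrays it was 0.67 (adjusted p = 0.00327). Serpinb6a has close relatives on the same chromosome, and cross-hybridisation was not tested.

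Ctla2a, a protein similar to the propeptide of cysteine proteases, read 10.22, 9.10, 10.42 and 10.61, against 8.87, 9.65 and 10.10. Replicate 2 was near the bottom of the control range and the other 3 above it. Ctla2a rose on 3'-biased arrays by 0.90 (adjusted p = 0.0304) and differed by 0.05 on intact ones.

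Among the cytoskeletal and RNA processing genes, Enc1, an actin-binding Kelch protein, rose. Its values were 12.73, 13.10, 13.29 and 13.30 in trisomy 13, and 11.92, 12.31 and 12.59 in controls. The groups did not overlap. The log2 fold change was 0.84 ± 0.15 (SE; 1.79-fold, adjusted p = 0.00981, interval 0.52 to 1.16), with 0.65 on intact and 1.03 on 3'-biased arrays. The call was lost without replicate 3 (0.78, adjusted p = 0.0535) or replicate 4 (0.77, adjusted p = 0.0652), with about the same fold, and with the mean of its 3 probe sets, one of them near the lowest signal (0.57, adjusted p = 0.0661).

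Smn1, needed to assemble splicing particles, gave the widest gap among the 34. It read 9.56 and 10.00 on intact arrays, above all controls (7.59, 8.97 and 9.39), and 3.86 and 3.85 on 3'-biased arrays, far below them. The log2 fold change was 0.93 on intact arrays (1.91-fold, interval 0.18 to 1.69), which held the dose, and -4.99 on 3'-biased arrays (adjusted p = 6.48e-08). The difference of -5.92 passed (adjusted p = 3.78e-07). On trisomy 16 arrays, where Smn1 is at 2 copies, it read 5.23 on the 3'-biased array and 9.21 and 9.14 on the others. There the 3'-biased minus intact value was -3.95 for Smn1 (adjusted p = 0.000445) and -4.49 for Gadd45g (adjusted p = 0.00863), in a comparison where 3.09% of all tested genes were higher and 7.28% lower (10.4% in all). That value rests on 1 3'-biased trisomy 16 array, which is assumed to vary like the other groups.

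Map1b, a microtubule-associated protein of neurons, read 9.43 and 9.26 on intact arrays, above all controls (6.43, 8.10 and 8.77). On 3'-biased arrays it read 5.96, below all controls, and 7.85, within them. Its difference was 1.31 on intact arrays and -1.12 on 3'-biased arrays, and the difference of -2.44 passed (adjusted p = 0.0133). That call was lost without trisomy 13 replicate 1 (-2.35, adjusted p = 0.0637), 2 (-2.52, adjusted p = 0.0653) or 3 (-1.50, adjusted p = 0.144). Control 9, whose Gapdh difference of 1.41 was the highest of the controls, was the lowest control for 8 of the 34 genes. These were Smn1, Map1b, Gadd45g, Edn1, Inhba, Plk2, Serpinb6a and Enc1, of which the last 5 were above their control mean on 3'-biased arrays. Control 3, with the lowest Gapdh difference of the controls (-0.20), was the lowest control for 12 genes.

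Split by 3' bias, the 34 genes as a group stayed near the dose while single genes moved. The median was 0.49 (1.41-fold) on intact arrays and 0.74 (1.67-fold) on 3'-biased arrays. The intact arrays gave 1 call among the 34 (2.94%), Serpinb6a, beside 10 of the 243 other chromosome 13 genes (4.12%). At an unadjusted p under 0.05 there were 10 of the 34, beside 111 of the 243 and 730 of all 7381. On 3'-biased arrays 13 of the 34 (38.2%) rose and 2 fell (Gadd45g and Smn1). There 15.6% of all tested genes rose and 20% fell (35.6% in all). Among the 243 other chromosome 13 genes 51.9% rose and 8.23% fell. In the comparison of the 2 kinds of array, 1 gene was higher on the 3'-biased arrays (Msh3) and 3 lower (Gadd45g, Map1b and Smn1), against 6.34% and 16.1% of all tested genes (22.4% in all). A share of calls on the 3'-biased arrays that is near these percentages says nothing particular about the listed genes.

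On intact arrays 9 genes had an interval that held 1.5-fold and excluded no change, namely Rasa1, Inhba, Cdk7, Plk2, Gadd45g, Mtrr, Enc1, Map1b and Smn1. The share among the other 243 genes of the chromosome was 39.9%. By its unadjusted interval Serpinb6a was above the dose and Vcan below it, beside 5.76% and 4.94% of the other 243 genes. The remaining 23 regulators held both 1.5-fold and no change. On 3'-biased arrays 13 held the dose and excluded no change, beside 31.7% of the other 243 genes. There the unadjusted intervals of Rasa1, Ptch1, Msh3, Foxc1 and Enc1 were above the dose, and those of Gadd45g, Map1b and Smn1 below it, beside 28% and 13.6% of the other genes. After adjustment Rasa1 and Msh3 were above the dose and Gadd45g, Map1b and Smn1 below it, while Ptch1 and Foxc1 (adjusted p = 0.0584 for both) and Enc1 (adjusted p = 0.0708) missed the threshold. Rasa1 moved from holding the dose to above it, with values of 0.98 and 1.20, and was 0.66 against the 3'-biased trisomy 16 array. Both intact arrays lay above all controls for 10 of the 34 (4.2% of all tested genes), and both 3'-biased arrays for 16 (16.7%). Among the 243 other chromosome 13 genes the counts were 85 and 120.

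**Figure D2:**
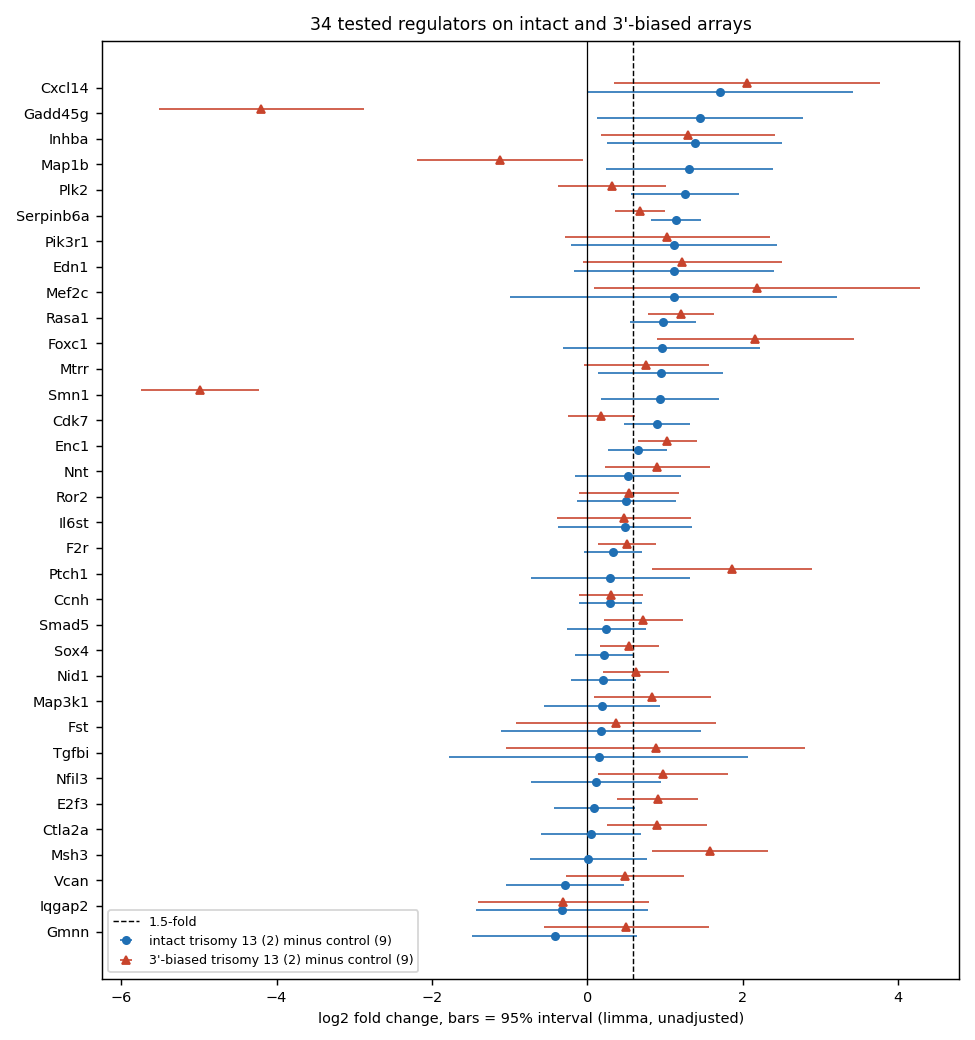
Log2 fold change over 9 controls for the 34 tested regulators, on 2 intact (blue circles) and 2 3'-biased (red triangles) trisomy 13 arrays, with unadjusted 95% intervals from limma and a dashed line at 1.5-fold. Gadd45g, Map1b and Smn1 change sides of 0, with intact values of 1.45, 1.31 and 0.93 and 3'-biased values of -4.20, -1.12 and -4.99. Gmnn (-0.42 intact, 0.50 3'-biased) and Vcan (-0.29 and 0.48) change sides the other way.

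Other probe sets of the same genes show how far the choice of probe set sets the 3'-biased values. For 17 of the genes more than 1 probe set, 43 in all, had a control mean of at least 4. On intact arrays 39 of the 43 were above their control mean and 0 were below it by over 1. On 3'-biased arrays 30 were above and 9 were below by over 1, and 8 of those 9 were also lower by over 1 on the 3'-biased trisomy 16 array. The probe sets of a gene spanned over 1 for 2 genes on intact arrays and for 10 on 3'-biased ones.

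Il6st is an example: its 3 probe sets differed from controls by 0.48, 1.18 and 1.30 on intact arrays, and by 0.47, -5.79 and -2.34 on 3'-biased ones. For Pik3r1 a second probe set read 0.90 on intact and -2.37 on 3'-biased arrays, and for Smad5 a second read 0.49 and -3.31. Rasa1 held up on 2 of its 3 probe sets on 3'-biased arrays (1.20 and 1.19, with -0.21 on the third), and all 3 were higher on intact ones (0.98, 1.14 and 1.37). Enc1 gave 0.65 on both of its expressed probe sets on intact arrays and 1.03 and 0.95 on 3'-biased ones, and another, at 1.99 in controls, gave 0.16 and -0.03. Where each probe set lies on its transcript was not used here.

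**Figure D3:**
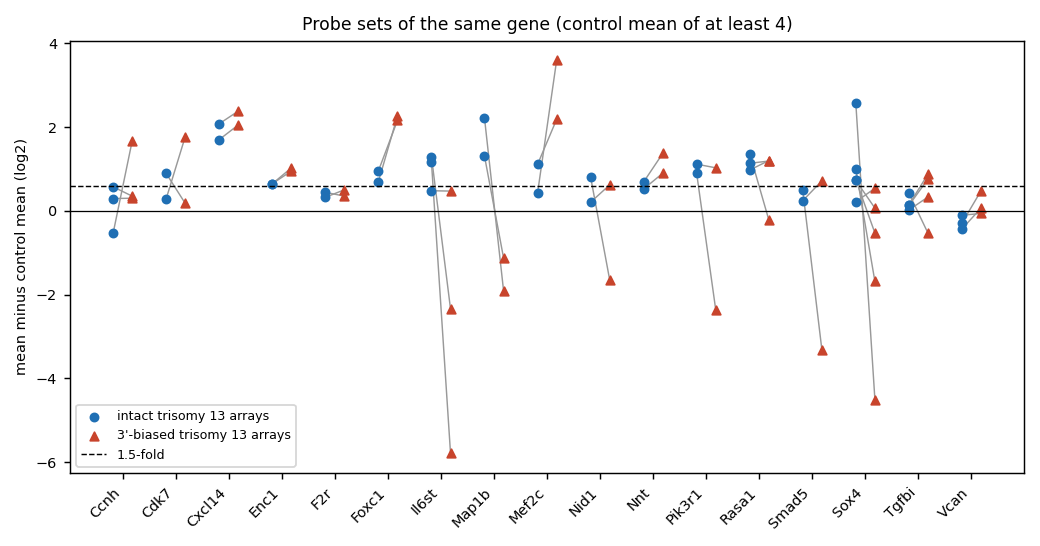
Mean minus control mean (log2) of each probe set for the 17 regulators with more than 1 probe set of control mean at least 4, on intact and 3'-biased trisomy 13 arrays, with lines joining the same probe set and a dashed line at 1.5-fold. On intact arrays no probe set is below control by over 1, and on 3'-biased arrays 9 of 43 are, the lowest being Il6st at -5.79.

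Of the 6 genes below the filter, Foxf2 and Dsp had all 4 trisomy 13 arrays above all 9 controls. The share of all genes below the filter that did so is not given here. At this low level the control SD was 0.21 for Foxf2 and 0.06 for Dsp. Itga2, at 2.46 in controls, also had 3 of its trisomy 13 arrays above all controls. Foxf2, a forkhead factor of mesenchyme, read 3.65, 4.28, 4.54 and 4.90, with controls from 2.91 to 3.51. Dsp, which encodes desmoplakin of epithelial junctions, read 4.89, 3.52, 7.88 and 7.56, with controls from 2.57 to 2.80, and the trisomy 1 line read 5.87. The mean of 8 epithelial markers was 3.07 to 3.29 on the trisomy 13 arrays and 2.72 to 3.45 in controls, and 2 of the 8 were tested, of which 0 passed. Krt19 differed by 0.89 (adjusted p = 0.296) and reached 7.37 on replicate 4, above all controls (4.11 to 7.17), and Krt18 read 4.55 to 4.93 (controls 3.88 to 7.27). Krt5 reached 4.03 on replicate 3, and the defining markers Cdh1 (2.48 to 2.89) and Epcam (1.91 to 2.08) were low on all 4. Their part in the Dsp values was not tested. Fitted with no filter, Foxf2 differed by 1.14 (adjusted p = 0.00688) and Dsp by 3.28 (adjusted p = 0.0116). The share of all genes called in that fit is not given here. On trisomy 13 arrays Bmp6 (2.11 to 3.05), Gli3 (2.74 to 3.02), Fancc (2.97 to 3.78) and Itga2 (2.42 to 2.69) were low throughout. Itga1, Ripk1, Cdc14b, Srd5a1, Arsb and Gtf2h2 had no probe set naming 1 gene and were not analysed here.

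Of the 34 genes, 12 lie next to another of them, in 5 runs. Mef2c, Ccnh and Rasa1 follow each other among the tested genes of the chromosome (build GRCm38.p6), with intact values of 1.11, 0.30 and 0.98. Cxcl14, Tgfbi and Smad5 also follow each other, with 1.70, 0.15 and 0.25, and so do F2r and Iqgap2, with 0.33 and -0.33. Nfil3 and Ror2 gave 0.11 and 0.50, and Map3k1 and Il6st 0.19 and 0.48. Differences between neighbours were not tested.

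**Figure D4:**
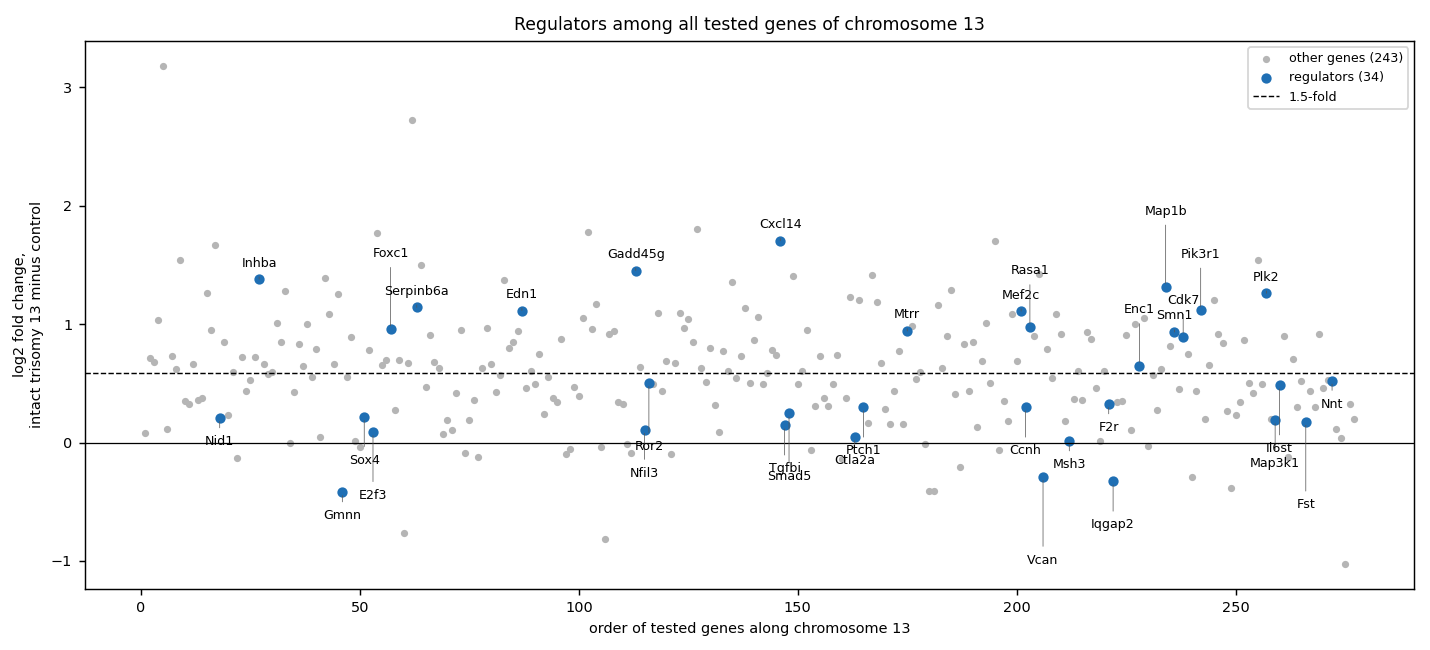
Log2 fold change of intact trisomy 13 minus control for all 277 tested genes in their order along chromosome 13, with the 34 regulators in blue, the 243 other genes in grey and a dashed line at 1.5-fold. The regulators lie along the whole chromosome, from Gmnn at -0.42 to Cxcl14 at 1.70.

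In the other trisomies, where these genes are at 2 copies, 0 of the 34 passed in trisomy 16, against 0.0406% of all tested genes. At an unadjusted p under 0.05 there were 6 of the 34, beside 15 of the 243 other chromosome 13 genes and 516 of all 7381. The median was -0.15. Vcan read 12.53, 12.39 and 12.73 in trisomy 16, a difference of 1.11 (adjusted p = 0.298), which was above its trisomy 13 values. Set directly against the 3'-biased trisomy 16 array, the 2 3'-biased trisomy 13 arrays had a median of 0.59 over the 34 genes, with 27 above 0 and 0 past the threshold, in a comparison where 0.217% of all tested genes were higher and 1.99% lower (2.21% in all). The same comparison gave 0.38 over the other chromosome 13 genes and -0.08 over all genes, and rests on 1 trisomy 16 array.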

How the data were processed

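Messenger RNA of 18 lines was measured on 1 array each. The authors deposited log2 expression values per probe set, made with GCRMA and the affy package per the submitters' processing notes, while versions, settings and any joint summarising of arrays were not stated in what was used. Values ran from 0.968 to 16.6. Arrays give no counting depth, and their number limits the precision.

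Of 22690 probe sets, 64 are controls and 20380 name 1 gene in the platform's gene table. The probe set with the highest mean stood for each of 12393 genes. Genes with a mean of at least 4 were tested (7381) by R 4.3.3 and limma 3.58.1 (trended eBayes after lmFit, two-sided, Benjamini-Hochberg adjusted p under 0.05). All 18 arrays entered 1 fit with 5 groups, or 7 where the trisomy 13 and 16 arrays were split at a Gapdh 3' minus 5' difference of 3. Intervals are 95% and unadjusted. The test against 1.5-fold was adjusted over chromosome 13 alone. The procedure was tested on simulated data. The regulators, partner and marker lists and the Gapdh limit were chosen with earlier results of these data known. Values in every trisomy 13 array are given for genes past a threshold, away from 1.5-fold or not overlapping with controls, and others by role with examples. Partners are named where they passed or are direct partners. Alternatives were other filters, probe set summaries, centring, covariates, blocks and left-out arrays. Replicate numbers and the first number in the titles were not shown to pair lines, so both blocks are given only as alternatives. Each trisomic line shares its first number with a control line, and what that number means was not given.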

Additional observations from a re-analysis of the deposited data

Results flagged for a closer look

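In 80 sets of 4 or 9 arrays (trisomy 13 or control, for each of the 40 measured genes), 8 held an array far from the others, where chance gives about 1 in 20. These were F2r in trisomy 13 replicate 2 (14.59) and control 2 (15.02), Bmp6 in trisomy 13 replicate 3 (3.05) and control 9 (2.24), Fancc in trisomy 13 replicate 2 (3.78), Nfil3 in control 2 (8.33), and Map1b (6.43) and Smn1 (7.59) in control 9. Bmp6 and Fancc are at low levels.

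The 3'-biased and intact trisomy 13 arrays differed by limma for Smn1 (-5.92), Gadd45g (-5.65), Map1b (-2.44) and Msh3 (1.57).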

How the results depend on the processing

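The 3 genes called in trisomy 13 became 1 (Serpinb6a) with the 3' bias as a covariate or without the 3'-biased arrays, 2 with the mean of all probe sets, 5 with no filter, and 2 to 7 as arrays were left out in turn (7 without trisomy 13 replicate 2). Against the 3'-biased trisomy 16 array, an alternative chosen after seeing the data, 0 passed, as with first number as replicate block. With the replicate number as replicate block, 2 others passed (Cxcl14 and Tgfbi), 3 genes were away from 1.5-fold (5 with no filter, 0 as arrays were left out), and the median was 0.73. These numbers were not shown to pair lines: correlations were -0.26 to -0.03 by replicate number and -0.10 to 0.36 by first number. The correlations cannot exclude pairing, since deviations among the trisomy 13 arrays also hold the split between intact and 3'-biased arrays. The median ran from 0.45 to 0.63 as arrays were left out. The intact count of 1 became 3 after centring and 2 with no filter, and ran from 0 (without trisomy 13 replicate 2, where Serpinb6a gave 0.87) to 2 (without control 1, 3 or 9). The 3'-biased count of 15 ran from 5 to 17 (5 without trisomy 13 replicate 4, 8 without replicate 3). The difference count of 4 became 8 with the mean of all probe sets and 10 with no filter, and ran from 2 (without trisomy 13 replicate 2) to 5. Non-overlapping genes were 7 after centring, 10 on intact arrays (added after seeing the data) and 4 to 8 with arrays left out (8 without trisomy 13 replicate 2). The 2 partners became 1 with the mean of all probe sets or the first number as block and 0 without the 3'-biased arrays, and ran from 0 (without trisomy 13 replicate 4) to 9 (without replicate 2; 4 without replicate 1).

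Of the values of single genes, 809 kept their direction and side of the threshold, 21 lost it, 8 gained it and 27 reversed. Reversed values with the 3' bias covariate were Gmnn -0.54, Gadd45g 1.22, Nfil3 -0.0296, Vcan -0.13 and Smn1 0.54, and without the 3'-biased arrays Gmnn -0.42, Gadd45g 1.45, Vcan -0.29 and Smn1 0.93. With the mean of all probe sets they were Il6st -0.78, Smad5 -0.46, Sox4 -0.0694 and Vcan -0.0554. With replicate number as block they were Iqgap2 0.20, Gmnn -0.27, Vcan -0.24 and Map1b -0.14, and with first number as block Tgfbi -0.43. With arrays left out, Gmnn ran from -0.20 to 0.21, Vcan from -0.13 to 0.28 and Map1b from -0.34 to 0.82. The cause was not tested.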

Other observations

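Ctla2a was chosen after its values were seen. The trisomy 16 lines read 10.48, 10.79 and 10.87, the trisomy 1 line 11.29 and the trisomy 19 line 10.87, and all 5 arrays lay above all controls, as for 1 of the 34 tested regulators and 0.0813% of all tested genes. In trisomy 16 it differed from controls by 1.10 (limma adjusted p = 0.210).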
